A study of Mus musculus with 9 samples.

Results

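Open chromatin was followed in basal cells of the mouse mammary gland through puberty, adulthood and pregnancy, in the 3 basal libraries of a series of 9. The 3 were chosen by their labels alone, and the comparison covered all 124860 regions of the deposited table. The remaining 6 libraries hold luminal cells positive (ER+) or negative (ER-) for the oestrogen receptor at the same stages. Each cell type and stage had 1 library, made by ATAC-seq from 100000 cells sorted by FACS. All 9 libraries carry the genotype ERrtTA/TetOCre/rosaYFP, in which rtTA is a doxycycline-dependent activator, TetOCre a recombinase gene under its control and rosaYFP a fluorescent reporter. The pregnancy stage is mid pregnancy in the series' design, and ages, doxycycline treatment and the number of mice pooled are not given in the sources used here. With 1 library per stage, a difference between stages cannot be told apart from a difference between libraries or mice, and no test was possible within basal cells.

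Basal cells form the outer layer of the mammary ducts and lie against the basement membrane. They are contractile, share features with smooth muscle, and squeeze milk from the alveoli in lactation. In puberty the ducts grow into the fat pad, in the adult the tree is largely quiescent between cycles, and in pregnancy alveoli grow and luminal cells prepare for milk production. ATAC-seq uses the Tn5 transposase to cut open DNA, so the signal of a region follows how accessible it is, together with any difference in the DNA itself. The deposited table pairs its regions with neither genes nor coordinates. The cell types were therefore not checked against marker genes, no sequence or promoter could be assigned, and regions are named by their number.

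The 3 basal libraries were more alike than any of them was to a luminal library. Regions of 1 library are not independent of each other, so correlations over them are descriptions. Pearson's r of the log2 signal was 0.895 between basal puberty and basal adult. The basal pregnancy library had an r of 0.833 with puberty and 0.823 with adult. Its highest r with a luminal library was 0.769, with ER- luminal pregnancy, and the same pair stood at 0.761 in the brighter regions, meaning those whose mean over the 9 libraries reached the median of such means. The depth was uneven: reads in regions ranged from 2186941 in basal pregnancy to 7976287 in basal adult. There 1 read was worth 2.199 units of signal in basal pregnancy against 0.7915 and 0.7892 in basal puberty and adult. The luminal pregnancy libraries had 3418164 (ER-) and 2641254 (ER+) reads, against 6679907 to 11328189 in the earlier luminal ones. In them 1 read was worth 1.517 and 1.695 units, so low depth went with the pregnancy stage in every cell type. Thinned to the same 2186941 reads per library, the basal pairs had an r of 0.806 (puberty and adult), 0.788 (puberty and pregnancy) and 0.781 (adult and pregnancy). The gap between the pregnancy library and the others in this measure was thus smaller at equal depth.

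Regions that kept a similar basal signal through the stages outnumbered those that differed widely. On the scale of log2(signal + 1), used for all differences below, 60002 regions (48.1%) stayed within 2-fold over the 3 stages and 17078 (13.7%) differed at least 4-fold between some pair of stages. Among the brighter regions these shares were 60.6% and 5.1%, and among the dimmer ones 35.5% and 22.3%. For dim regions this scale gives a fold change that is too small. Basal pregnancy had under 10 reads in 57.2% of regions, against 29.6% in puberty and 31.1% in adult, and a count of 0 there allows up to 3 reads or 6.6 units of signal.

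Between puberty and adulthood, 2211 basal regions were at least 4-fold higher in the adult (1.77% of all) and 2911 were lower (2.33%). Between adult and pregnancy, 6456 were higher in pregnancy (5.17%) and 3871 lower (3.1%). Between puberty and pregnancy the counts were 4722 higher (3.78%) and 3230 lower (2.59%). Dim regions made up 86.9%, 81.1% and 82.3% of these 3 lists. The exact 95% counting interval of the fold, which covers counting error only, lay wholly past 2-fold in 1625, 2800 and 1848 of the listed regions. The direction of the lists depended on dim regions and on scaling. The share that was higher in the later stage was 43.2%, 62.5% and 59.4% in the deposited values, 73.2%, 50.6% and 72.6% with 4 added in place of 1, 53.4%, 45.1% and 48.8% after quantile normalization, and 47.1%, 78.7% and 78.4% at equal depth. In the brighter regions the counts higher and lower were 453 and 217, 829 and 1127, and 896 and 511. Of the regions whose interval lay wholly past 2-fold, with no 4-fold asked for, 70.6%, 55.9% and 77.1% were higher. The sizes of the lists came together once depth was equal, at 14783, 16554 and 13645 regions. In the brighter regions they were 670, 1956 and 1407 as deposited and 2908, 3214 and 2671 at equal depth.

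**Figure D1:**
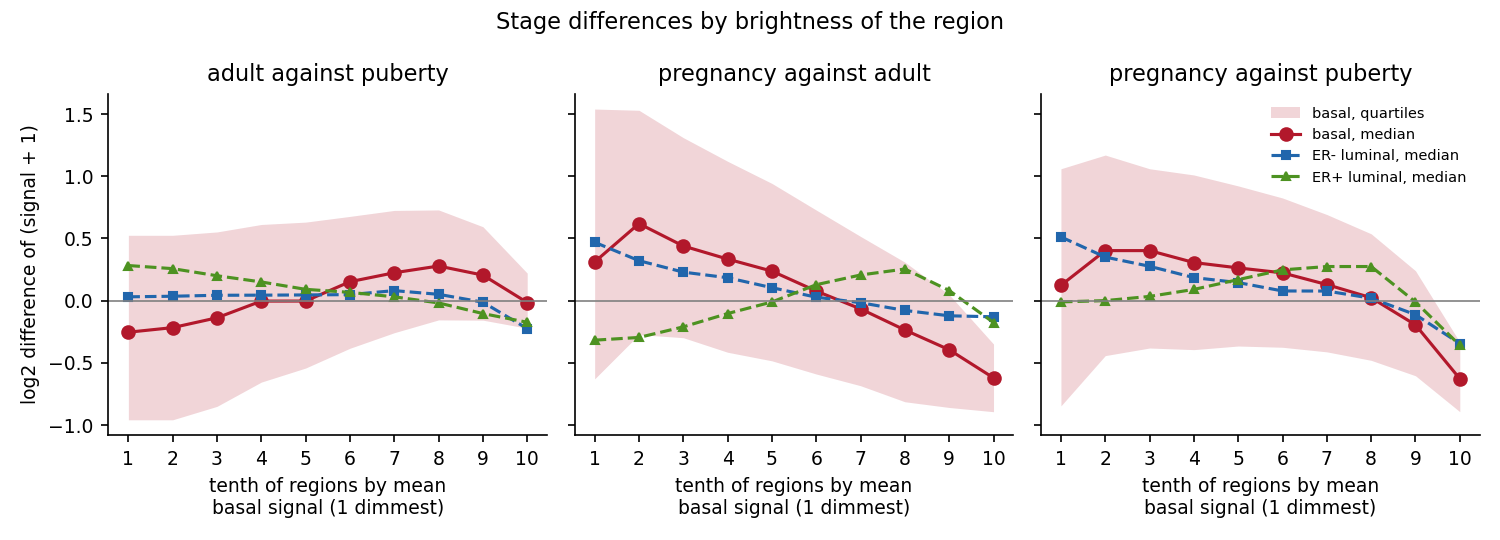
Median log2 difference of (signal + 1) for each pair of stages (panels), with regions sorted into 10 equal groups by their mean basal signal (horizontal axis, 1 dimmest). Red points are basal medians with their quartiles shaded, blue squares ER- luminal and green triangles ER+ luminal medians; from adult to pregnancy the basal median runs from 0.62 in group 2 to -0.62 in group 10.

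Bright and dim regions had opposite median differences between basal adult and pregnancy. In the dimmest 10% of regions the median log2 difference was 0.31 with quartiles of -0.63 and 1.54, and in the next group it was 0.62. In the brightest 10%, with a mean basal signal above 120.3, it was -0.62 with quartiles of -0.89 and -0.35, and against puberty it was -0.63. These bright regions had a median difference of -0.02 from puberty to adult. From adult to pregnancy the ER- luminal libraries had a median of -0.13 at these regions and the ER+ luminal libraries one of -0.18, which are nearer to 0 than the basal median. This difference between cell types was not tested. The brightest 10% held 58.8% of the basal puberty reads, 55.5% of the adult reads and 46.9% of the pregnancy reads. The 62430 regions of lowest mean basal signal held 7.67%, 7.01% and 12%. Equal depth left the median of the bright regions at -0.62, while quantile normalization, which gives all libraries 1 distribution, brought it to -0.03. The part that the range of values of the library had in this difference was not tested. The spread also narrowed with brightness: between adult and pregnancy the distance between the quartiles was 2.17 in the dimmest and 0.54 in the brightest group.

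Regions were then sorted by their course over the 3 stages into 8 patterns. A steady rise or fall asked for at least 2-fold at each step. A pattern of 1 stage only asked that this stage lay at least 4-fold above or below each of the others, and that the others lay within 2-fold of each other. The names describe these 3 libraries and were not tested. In all, 6717 regions (5.38%) followed 1 of the 8 patterns, and 10361 regions that differed at least 4-fold between some pair of stages followed none. The largest classes were pregnancy only lower with 1537 regions (1.23%), adult only lower with 1363 (1.09%) and pregnancy only higher with 1177 (0.943%). A steady rise was seen in 977 regions (0.782%) and a steady fall in 399 (0.32%). The puberty library alone was lower in 762 (0.61%) and higher in 264 (0.211%), and the adult library alone was higher in 238 (0.191%). Between 80.7% and 97% of each class lay among the dimmer regions.

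**Figure D2:**
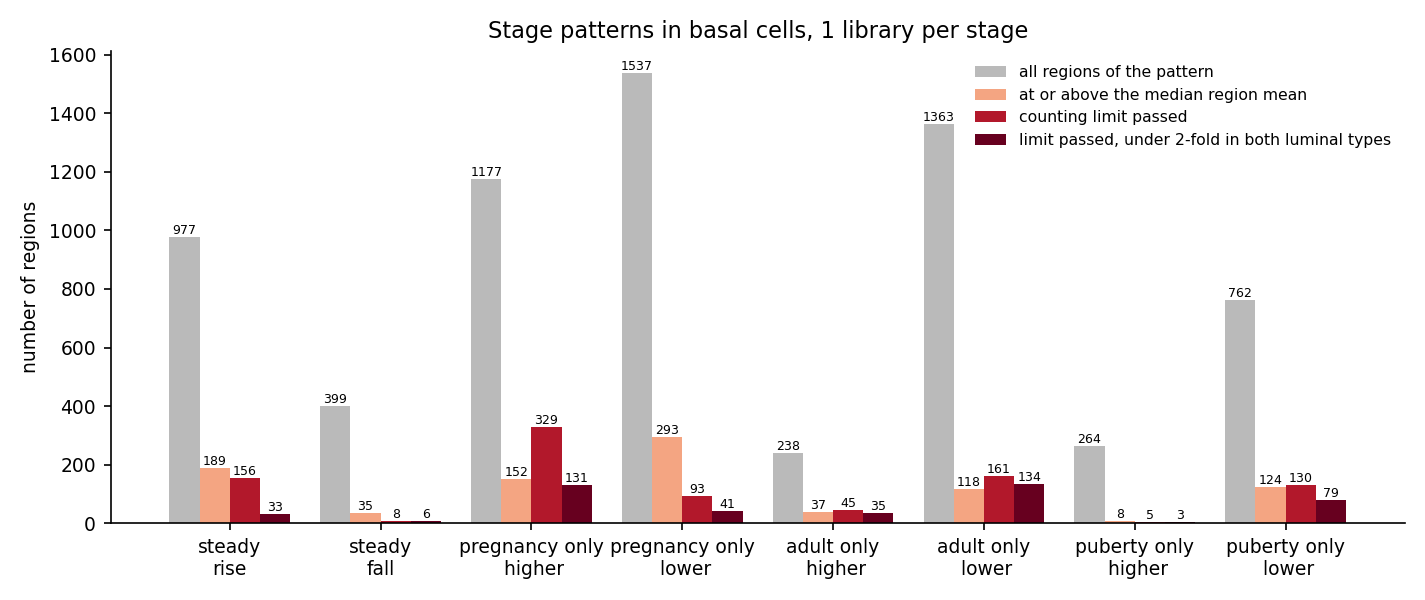
Number of regions (vertical axis) in each of the 8 stage patterns of basal cells (horizontal axis), from 1 library per stage. Grey bars count all regions, orange those at or above the median region mean, and red those whose counting intervals passed the limit. Dark red bars count those of the latter under 2-fold in both luminal types in the direction of the pattern. Pregnancy only lower is the largest grey bar with 1537 regions and pregnancy only higher the largest red bar with 329.

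A minority of the patterned regions stood beyond counting error. For a pattern of 1 stage the limit of each counting interval nearest to no change had to be at least 2-fold, and for a steady pattern each step had to exclude no change. This left 927 regions in all. Pregnancy only higher kept 329 regions (28% of its class), adult only lower 161, steady rise 156, puberty only lower 130, pregnancy only lower 93, adult only higher 45, steady fall 8 and puberty only higher 5. The order of the classes thus turned. It does not compare like with like, since steady patterns had a weaker limit and the basal pregnancy library is shallow. Pregnancy only lower, the largest class, kept 6.05% of its regions. Its members had a median of 7.92 units in puberty, 7.89 in adult and 0 in pregnancy, where 1 read is worth 2.199 units. The thresholds also fell within a dense range of values. Within 0.25 on the log2 scale of the threshold, 527 regions lay just inside and 920 just outside pregnancy only higher, and 481 and 731 did so for pregnancy only lower.

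Regions with a steady rise were below the luminal medians at puberty and near the ER- luminal median in pregnancy. The 156 that passed the counting limit had basal medians of 3.96, 15.8 and 39.6 in puberty, adult and pregnancy. In ER- luminal cells, whose values had no part in the choice, the same regions had medians of 23.7, 32.7 and 39.4, and in ER+ luminal cells 6.57, 6.84 and 21.2. All regions had basal medians of 14.2, 15 and 17.6, and the medians of all regions at puberty were 13.6 in ER- and 15.2 in ER+ luminal cells. At puberty the class was thus below the median of all regions in ER+ luminal cells and above it in ER- luminal cells. Its low basal value at puberty, also against the luminal medians, is favoured by the choice itself. Region merged120139 had 3.17, 17.4 and 59.4 units in basal cells over the 3 stages, from 4, 22 and 27 reads. It was 18.8-fold higher in pregnancy than in puberty (95% counting interval 6.54 to 73.8). In ER- luminal cells it had 2.87, 7.43 and 7.58 units, and in ER+ luminal cells 0.526, 0 and 5.08. Region merged54362 was the first among those that rose under 2-fold, or fell, in each luminal type. It had 0.791, 7.89 and 35.2 units from 1, 10 and 16 basal reads. It was already open in luminal cells at puberty, with 30.8 units in ER- and 25.2 in ER+ cells, and later had 60.7 in pregnant ER- and 6.78 in pregnant ER+ cells. A single read at puberty carries the first step of this region, whose interval from puberty to adult was 1.42 to 433-fold.

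A steady fall of at least 2-fold at each step passed the counting limit in 8 regions, with basal medians of 43.5, 18.6 and 3.3 units. By the counting limit alone, with no fold asked for at each step, 1921 regions had a steady fall. Of these, 1784 fell under 2-fold, or rose, in each luminal type, as did 71% of all regions. The basal fall may itself be under 2-fold here, so this count does not mark a course particular to basal cells. The brightest 10% of regions had basal medians of -0.62 from adult to pregnancy and -0.63 from puberty to pregnancy. The part of this shift in the 1921 was not tested. The 8 regions that passed the limit had lower luminal medians at puberty, 10.8 in ER- and 8.15 in ER+ cells. A high basal value at puberty, also against the luminal medians, is favoured by the choice itself. In pregnancy the luminal medians were 10.6 and 18.6. Region merged16304 ranked first both overall and among those that fell under 2-fold, or rose, in each luminal type. It had 68.1, 33.2 and 8.8 basal units from 86, 42 and 4 reads, so that puberty was 7.74-fold above pregnancy (95% counting interval 2.91 to 29). Its ER- luminal values were 9.32, 15.6 and 9.1 and its ER+ luminal values 3.15, 5.13 and 13.6. The basal library was thus the highest of the cell types at puberty for this region, which the choice also favours. In pregnancy its value was the lowest, but the basal, ER- and ER+ values came from 4, 6 and 8 reads and could not be ranked.

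Regions open in pregnancy alone included a group with the same course in every cell type. The 329 that passed the limit had basal medians of 3.17, 3.16 and 33 units. Their ER- luminal medians were 8.6, 14.9 and 24.3 and their ER+ luminal medians 4.21, 5.13 and 15.3. Of the 329 regions, 6.08% followed the same pattern in ER- and 20.1% in ER+ luminal cells, against 0.979% and 5.28% of all regions. Region merged15145 led the class, with 1.58 units in basal puberty, 1.58 in adult and 457.5 in pregnancy, from 2, 2 and 208 reads. Pregnancy was 289-fold above puberty, with a 95% counting interval of 79 to 2400. The ER- and ER+ luminal pregnancy libraries had 432.3 and 384.8 units and all earlier luminal libraries at most 3.71. Region merged86808 led the 131 regions that passed the limit and were under 2-fold in both luminal types. It had 0, 0.789 and 24.2 basal units from 0, 1 and 11 reads. With 0 set to 3 reads in the puberty library, pregnancy was 10.2-fold higher. For this region the lower 95% counting limit of pregnancy over puberty was 6.97-fold. Its interval against the adult library was 4.46 to 1320-fold. In ER- luminal cells it had 0, 5.94 and 7.58 units, a log2 difference of 3.10 from puberty to pregnancy, most of it before the adult stage. In ER+ luminal cells it had 9.99, 17.1 and 6.78 units.

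Regions low in pregnancy alone were bright at the earlier stages when they passed the limit. The limit itself favours this, since 1 read in basal pregnancy is worth 2.199 units. The 93 had basal medians of 49.9, 56.8 and 6.6 units, ER- luminal medians of 22.2, 26 and 13.7 and ER+ luminal medians of 32.1, 36.8 and 17. The same pattern was seen for 15.1% of them in ER- and 17.2% in ER+ luminal cells, against 0.792% and 3.57% of all regions. Region merged34518 had 95.8 and 84.4 basal units in puberty and adult and 2.2 in pregnancy, from 121, 107 and 1 reads. Adult was 38.4-fold above pregnancy (95% counting interval 6.75 to 1530). Its luminal values were 11.6 to 18.8 units at the earlier stages and 0 in both pregnancy libraries. Region merged34502 had 38.8 and 36.3 units from 49 and 46 reads and no read in pregnancy. With 3 reads in the pregnancy library in place of 0, it was 5.88-fold and 5.5-fold lower there than in puberty and adult. For this region the lower 95% counting limits of these folds were 4.6 and 4.3. Its luminal values were all between 0.526 and 4.55, so there was little luminal signal from which a lower value could be read.

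A high value in the adult alone was seen in 238 regions, near the 264 of puberty only higher. The 45 that passed the limit had basal medians of 11.1, 63.9 and 8.8 units, with ER- luminal medians of 7.89, 15.6 and 9.1 and ER+ luminal medians of 7.36, 7.7 and 10.2. Region merged82046 had 22.9, 168.9 and 13.2 basal units from 29, 214 and 6 reads. The luminal libraries followed the same course, with 10.8, 118.9 and 6.07 units in ER- and 13.7, 143.7 and 6.78 in ER+ cells. Region merged111165 had 28.5, 158.6 and 19.8 basal units from 36, 201 and 9 reads. The adult value was 5.57-fold above puberty (95% counting interval 3.89 to 8.17) and 8.01-fold above pregnancy (4.14 to 17.8). Its 6 luminal values lay between 5.99 and 14.9 units, all below the lowest basal value of 19.8. Between adult and pregnancy its ER+ luminal log2 difference was 1.06, against -2.94 in basal cells.

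Low values in the adult alone were common and mostly dim. The 1363 regions of the class had basal medians of 7.92, 0.789 and 8.8 units, and 91.3% were dimmer than the median region. The 10th percentile of all regions was also lowest in the adult library, at 2.37 units against 3.17 in puberty and 4.4 in pregnancy, and its part in the class was not tested. The 161 that passed the limit had basal medians of 14.2, 0.789 and 17.6 units, and luminal medians between 7.89 and 15.3. Region merged111464 led them, with 20.6 and 41.8 units in puberty and pregnancy from 26 and 19 reads and no read in the adult. With 3 reads in place of 0 in the adult library it was at least 8.69-fold and 17.6-fold higher at those stages. Its ER- luminal values were 3.58, 3.71 and 10.6 and its ER+ luminal values 0, 3.42 and 23.7.

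**Figure D3:**
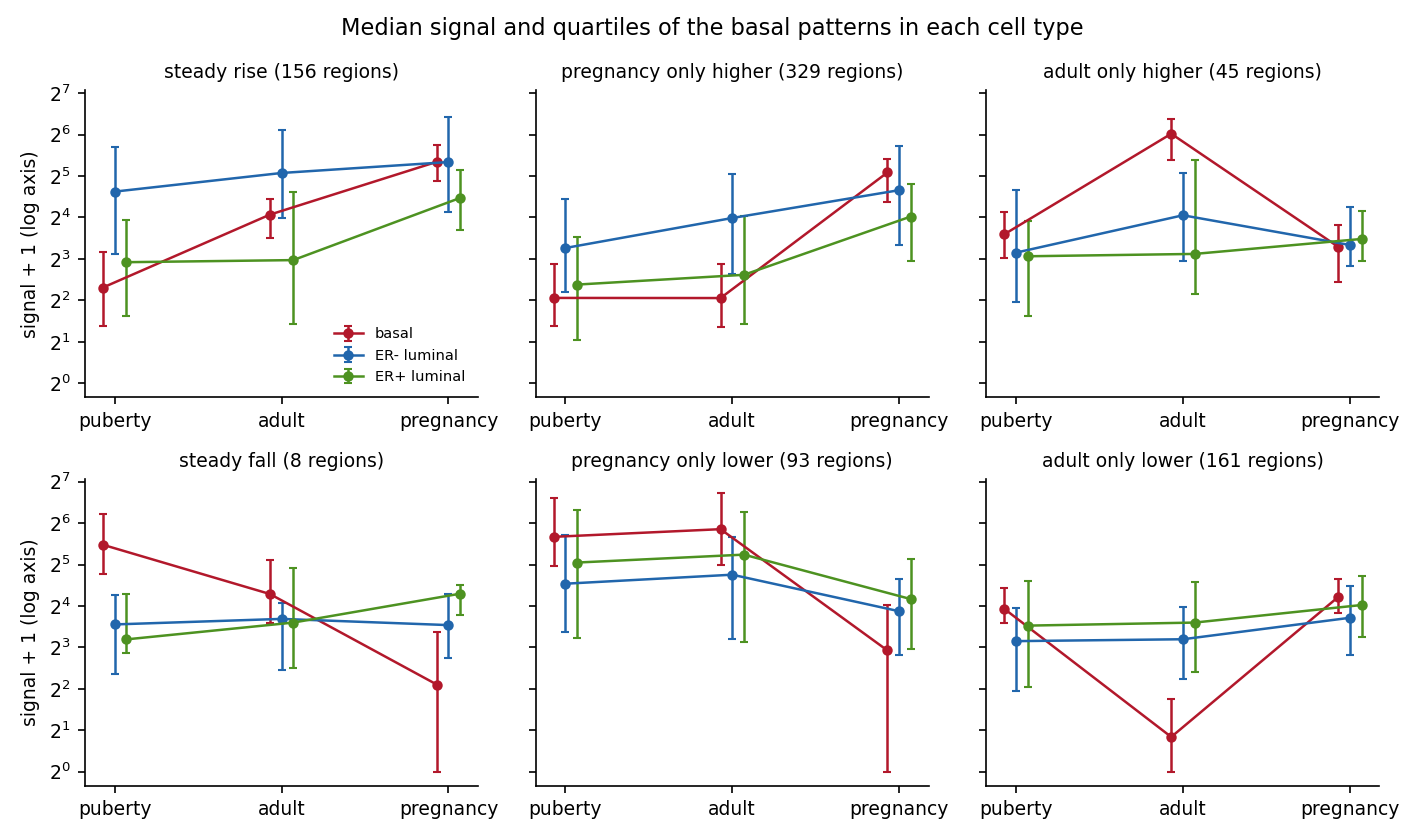
Median signal plus 1 with quartiles (vertical log axis) at the 3 stages (horizontal axis) in basal (red), ER- luminal (blue) and ER+ luminal (green) libraries, for regions of 6 basal patterns that passed the counting limit. The basal course is fixed by the choice. The luminal medians of the adult only lower class lie between 7.89 and 15.3 units at every stage. In both luminal types the medians of pregnancy only higher, adult only lower and steady rise are highest in pregnancy.

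**Figure D4:**
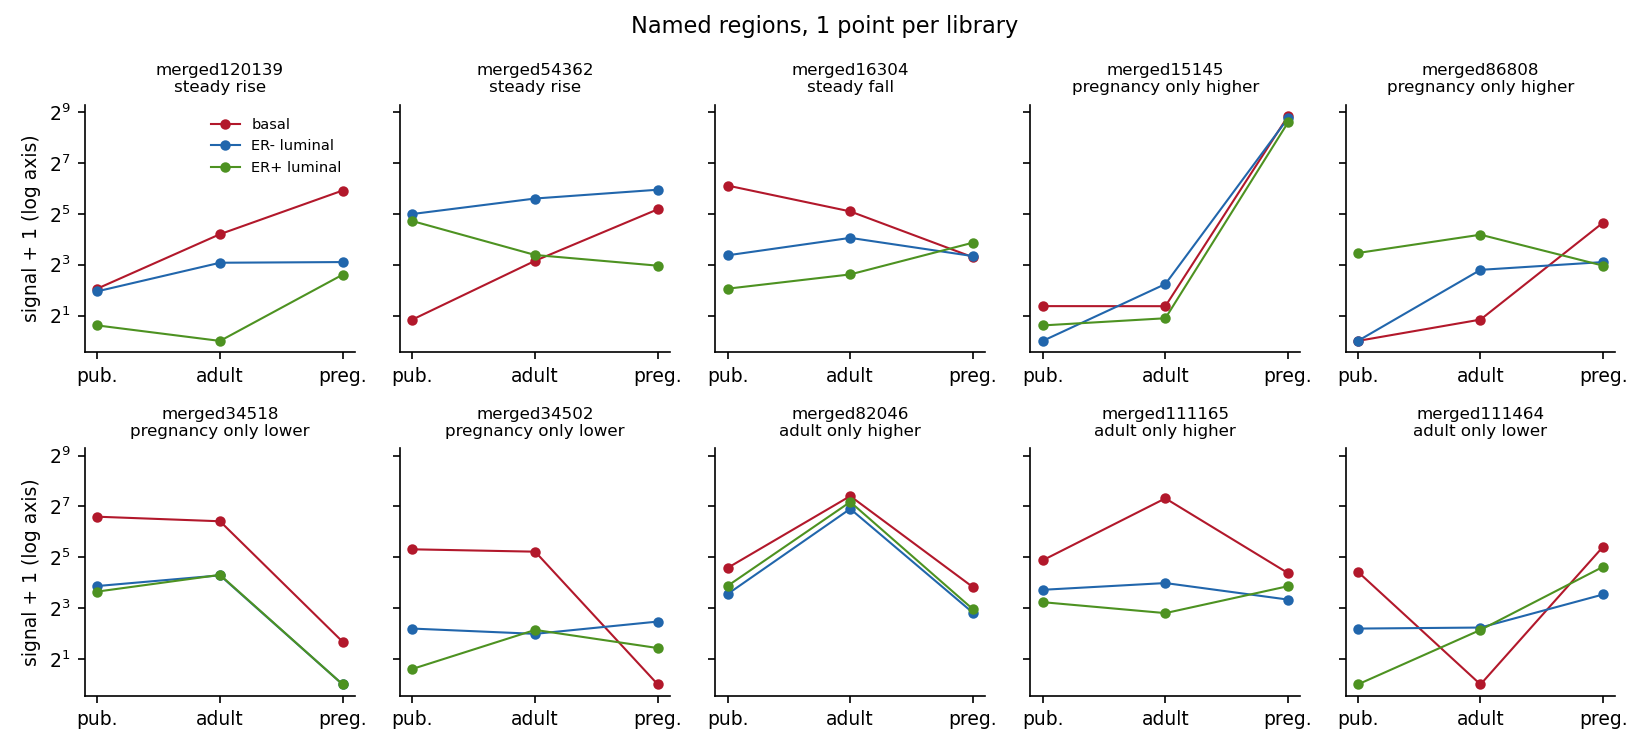
Signal plus 1 (vertical log axis) of the 10 regions named for the patterns, with 1 point per library at puberty, adult and pregnancy (horizontal axis), coloured by cell type as basal (red), ER- luminal (blue) and ER+ luminal (green). In merged15145 and merged82046 the 3 cell types share a course, whereas in merged111165 only the basal adult library lies above 30 units.

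In every pattern, the share of regions under 2-fold in both luminal types was smaller than in the whole table. The measure is the score of that pattern, taken in its direction only. A luminal course of another shape or the opposite direction can therefore pass it, as the ER+ luminal values of merged111464 and merged54362 show. This held for 35.9% of the steady rises, against 62.6% of all regions, and for 57.6% of the steady falls, against 71%. It held for 52.3% of pregnancy only higher against 75.5%, and for 64.2% of pregnancy only lower against 79.9%. For the adult it held for 83.2% of the higher class against 93.9%, and for 82.7% of the lower class against 90.8%. For puberty it held for 88.3% of the higher class against 94.3%, and for 69.3% of the lower class against 84.5%. All regions are brighter than the patterned ones, and brightness was not matched here. Lists of at least 4-fold differences overlapped likewise: 15.1% of the regions higher in basal pregnancy than in puberty were also higher in ER- luminal cells, where 6.57% of all regions were, and they made up 8.66% of that luminal list. In ER+ luminal cells 24.5% of them were higher, against 12.3% of all regions, making up 7.52% of the luminal list. The pregnancy libraries of all cell types were the shallow ones, and the part of depth in what they share was not tested. Of the 2911 regions lower in the basal adult than in puberty, 2.89% and 3.06% were lower in ER- and ER+ luminal cells, against 1.35% and 1.08% of all regions. At least 4-fold higher there were 3.57% and 4.26% of them, against 2.34% and 2.64% of all regions. Both directions were thus above their share of all regions.

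The difference between basal and luminal stage changes was tested with limma across all 124860 regions. The model compared the basal change with the mean of the ER- and ER+ luminal changes, took its error from the departure of the luminal types from a shared change, with 2 residual degrees of freedom, and assumed that basal libraries vary as luminal ones do. Between pregnancy and adult 7 regions were called at a Benjamini-Hochberg adjusted p under 0.05 (0.00561% of all), and between pregnancy and puberty 6 (0.00481%). In each of them basal cells had the lower change, and the same 6 were in both lists. Between adult and puberty limma called 0 regions, with 3172 at an unadjusted p under 0.05, and edgeR and DESeq2 on the recovered reads called 0 as well. For pregnancy against adult and against puberty edgeR called 6 and 9 regions and DESeq2 1 and 1. Of the 6717 patterned regions, 1 was called in the contrast of its pattern, so for the rest a course particular to basal cells was not shown by this test.

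The called regions were among the brightest of the table, and 6 of the 7 had a mean signal among the 100 highest. In all 7 the signal was lower in basal pregnancy than in basal adult and higher in both luminal pregnancy libraries than in the luminal adult ones. A lower basal value was common at this brightness: the brightest 10% of regions had a basal median of -0.62 with quartiles of -0.89 and -0.35. Their luminal medians were -0.13 (ER-) and -0.18 (ER+). The basal differences of the 7, in number order, were -0.38, -2.33, -1.21, -0.40, -0.55, -1.36 and -0.70. Some lay within those quartiles and others below them. Region merged45219 had 957.7, 879.2 and 173.7 units in basal puberty, adult and pregnancy. Its ER- luminal values were 853.8, 814.2 and 1609 and its ER+ luminal values 282.4, 540.5 and 1571. The basal change from adult to pregnancy was lower than the luminal mean by a log2 difference of -3.59 (SE 0.39, limma adjusted p = 0.00353, n = 9 libraries). Against puberty it was -4.15 (SE 0.39, limma adjusted p = 0.00125). Region merged51739, chosen after its values were seen, was the brightest in each basal library, with 33340, 28600 and 21730 units, and had 60110 and 44990 units in the pregnant ER- and ER+ luminal libraries. Its log2 difference from the luminal change was -1.73 between pregnancy and adult (SE 0.21, limma adjusted p = 0.0104).

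**Figure D5:**
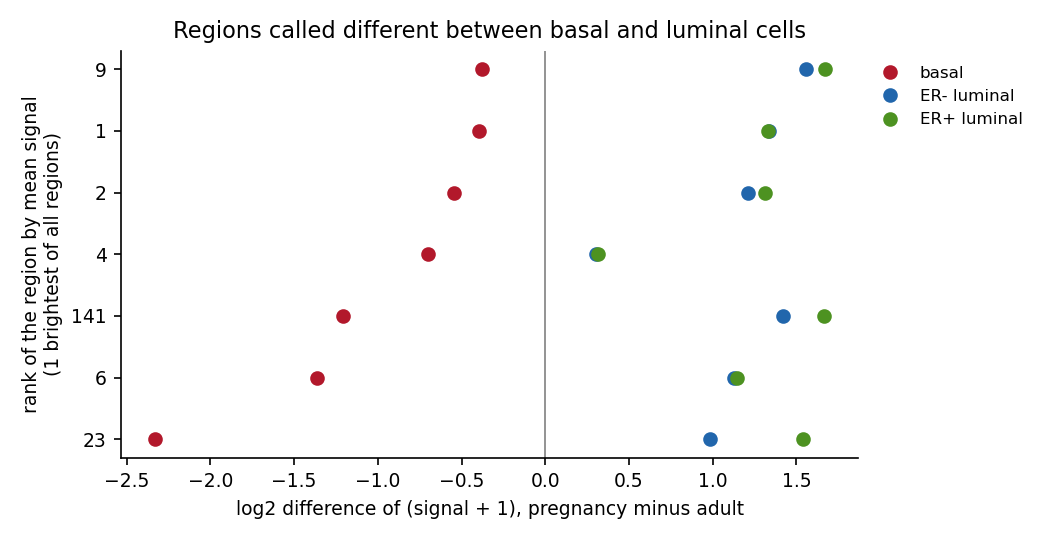
Log2 difference of (signal + 1) between pregnancy and adult (horizontal axis) in basal (red), ER- luminal (blue) and ER+ luminal (green) cells for the 7 regions called by limma, labelled by the rank of their mean signal among all regions (vertical axis). Every basal point lies below 0, down to -2.33 in the region ranked 23, and every luminal point above 0.

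These calls did not hold under each setting. Without a variance trend limma called 0 regions in either contrast, and in the brighter regions alone it called 0 and 3. Quantile normalization and equal depth each left 0 and 4 calls. For merged45219 the adjusted p between pregnancy and adult was 0.716 after quantile normalization and 0.0987 at equal depth. With 1 luminal library left out, which leaves 1 residual degree of freedom, the counts ranged from 7 to 3315 between pregnancy and adult, from 46 to 6952 between pregnancy and puberty and from 3 to 21 between adult and puberty. The highest counts of both pregnancy contrasts came without the ER- luminal pregnancy library. Without a puberty or adult luminal library the fitted prior degrees of freedom were infinite, so that each region took the spread of other regions of its brightness and its own replicate error had no part. Without a luminal pregnancy library they were finite, at 27.2 without ER- and 29.4 without ER+. Of the 7 regions called between pregnancy and adult, 7 were called in each such fit, except that 6 were called without ER+ luminal pregnancy.

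Some regions of the same pattern lay next to each other in the numbering of the table. The sources used here do not say whether the numbers follow the genome. The log2 difference between basal pregnancy and adult had a Pearson r of 0.081 between regions 1 number apart and 0.000296 between regions 100 apart. Of the 93 pregnancy only lower regions that passed the limit, 10.8% had a neighbour by number in the same set, where 0.146% of all regions had such a neighbour. For the 329 pregnancy only higher regions the shares were 5.47% and 0.522%, for the 156 steady rises 2.56% and 0.25%, and for the 161 adult only lower regions 0% and 0.258%. The stretch from number 15134 to 15147, chosen after the values were seen, lists 14 regions. In each cell type 14 of the 14 were at least 4-fold higher in pregnancy than at both earlier stages. The 8 of them with at most 3 basal reads at each earlier stage had 151.8 to 457.5 units in basal pregnancy, 116.8 to 432.3 in ER- and 145.8 to 408.5 in ER+ luminal pregnancy.

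A stretch with the opposite course in basal cells ran from number 34499 to 34514 and holds region merged34502 described above. It was likewise chosen after its values were seen. Of its 16 regions, 15 were at least 4-fold lower in basal pregnancy than at both earlier stages, and 13 had no read in basal pregnancy. In the ER- and ER+ luminal pregnancy libraries 10 and 10 had no read, and 9 had none in any of the 3 pregnancy libraries. In all, 13 regions of the table had no read in basal pregnancy although at least 10 were expected there from the signal at each earlier stage, and 7 of these 13 lay in this stretch. For those 7 the basal signal was 30.1 to 57 units at puberty and 23.7 to 47.4 in the adult. The luminal signal there was at most 19.7 units, and 4 of the 16 regions were at least 4-fold lower in pregnancy in each luminal type. The basal course of these regions was therefore seen against little luminal signal, and a difference in the DNA of the mice of each stage was not tested.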

How the data were processed

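The authors deposited 1 table of ATAC-seq signal for 124860 regions and 9 libraries. MACS2 2.1.0.20151222, Picard, SAMtools and Bowtie2 2.2.6 are named, with the GRCm38 (mm10) build, per the submitters' processing notes. The sources used here do not state how peaks were merged, reads shifted for the Tn5 cut or values normalized. Total RNA is what the molecule field reads, per the labels, although the protocols are those of ATAC-seq.

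All deposited signal values (100% within a tolerance of 0.02 reads) were whole multiples of 1 step per library, read as 1 read. Divided by each region's geometric mean, the signal had a median of 1.019 in every library, so the deposited signal was compared as it stands, as log2(signal + 1) over all regions. Within basal cells no test was made. Counting intervals are exact Clopper-Pearson 95% limits on recovered reads and cover counting error only: copies made by PCR count as separate reads. The difference between basal and luminal changes was tested with limma 3.58.1 in R 4.3.3, with edgeR 4.0.16 (quasi-likelihood) and DESeq2 1.42.0 on recovered reads as alternatives. The limma model was tested on simulated data, where it left most of the changes put in uncalled, the largest included, so that a region it does not call may still differ. Other computations used Python 3.11.15, numpy 2.4.6 and scipy 1.17.1.

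Equal depth means reads thinned without replacement to 2186941 per library. Brighter regions have a mean over the 9 libraries at or above 17.88. Named regions are the first of 6 patterns, overall and among those under 2-fold in both luminal types. They were ranked by the counting limit nearest to no change of the smallest fold asked for. Under 2-fold in luminal cells refers throughout to the direction of the pattern, so an opposite luminal change passes. From each of the limma contrasts adult against puberty and pregnancy against adult the called region with the largest difference in each direction was to be added, which gave 1 region. The patterns, thresholds and rules were chosen with earlier results of these data known.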

Additional observations from a re-analysis of the deposited data

Results flagged for a closer look

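The basal change differed from the luminal change in the same contrast, by the limma test of the difference itself, at 7 regions between pregnancy and adult and at 6 between pregnancy and puberty. In region merged45219 the log2 difference between the basal and the mean luminal change from adult to pregnancy was -3.59, with a lower value in basal pregnancy and higher values in both luminal pregnancy libraries. No group had enough libraries for a check of single outlying samples.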

How the results depend on the processing

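Counts are given for adult against puberty, pregnancy against adult and pregnancy against puberty, then for steady rise, steady fall, and higher and lower in pregnancy only, adult only and puberty only. With 4 added in place of 1, the 4-fold counts were 400, 2088 and 1316, the pattern counts 118, 20, 188, 145, 31, 28, 9 and 39, and those under 2-fold in both luminal types 35, 14, 80, 90, 24, 27, 6 and 31. In the brighter regions they were 670, 1956 and 1407, then 189, 35, 152, 293, 37, 118, 8 and 124, and 64, 11, 61, 95, 27, 94, 6 and 98. By the counting limit alone they were 2478, 3647 and 2375, then 375, 1921, 358, 254, 169 (adult lower), 6 and 164, and 108, 1784, 137, 179, 141 (adult lower), 4 and 99. At equal depth they were 14783, 16554 and 13645, then 1819, 2768 and 1015 (pregnancy), 565, 4431, 546 and 3193, and 640, 1670, 613, 450, 3421, 465 and 2090. Quantile normalization moved steady fall to 711, pregnancy higher to 752, adult lower to 854 and adult lower under 2-fold in luminal cells to 717. Counts not listed stayed within 1.5 times the value in the text. At equal depth in the brighter regions, chosen after seeing the data, the 4-fold counts were 2908, 3214 and 2671.

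For the limma test of pregnancy against adult, 0 regions were called in the brighter regions, after quantile normalization, at equal depth and without a variance trend, and 1 by DESeq2. Against puberty, 3 were called in the brighter regions, 0 without a trend and 1 by DESeq2. Leaving out 1 luminal library gave 3 to 21, 7 to 3315 and 46 to 6952 calls. The larger side of the 4-fold lists turned for adult against puberty, from 43.2% higher to 73.2% with 4 added and 53.4% after quantile normalization. For adult against puberty it also turned by the counting limit alone, to 70.6%, and in the brighter regions, with 453 higher and 217 lower. After quantile normalization it turned for pregnancy against adult, from 62.5% to 45.1%, and against puberty, from 59.4% to 48.8%. Pregnancy against adult turned in the brighter regions too, with 829 higher and 1127 lower. No named region changed sign under the settings run. The cause of these changes was not tested. No paired analysis was possible because each cell type and stage has 1 library and the labels carry no replicate numbers. Depth limits basal pregnancy most, with a median of 8 reads per region.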
